A study of Mus musculus with 19 samples.

Results

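Mast cells, basophils and eosinophils are granulocytes that store proteases, cationic proteins and histamine in granules, and 10 genes of these cells were followed in stem and progenitor cells of mouse bone marrow. The rule was a list of gene names with no threshold on a value. The genes are *Cpa3*, *Mcpt8*, *Gzmb*, *Srgn*, *Fcer1a*, *Ms4a2*, *Hdc*, *Il1rl1*, *Prg2* and *Epx*. All 10 were among the 54352 genes listed in each of the 19 libraries, and all 10 passed the filter on low counts in every comparison.

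The study asked what depletion of the lncRNA *Spehd*, also called lnc12928, does to blood progenitors. HSCs carrying an shRNA that doxycycline switches on were transplanted into mice, which reconstituted for 10 weeks and then received doxycycline for 6 days. Cells that expressed the shRNA, marked by zsGreen, were sorted from bone marrow as LSK cells (lineage-negative, Sca1+, cKit+; labelled KLS) or as common myeloid progenitors (CMPs), and their RNA was sequenced. The 6 groups were CMPs with sh10 (n = 3), sh20 (n = 2) or the control hairpin against *Renilla* luciferase (n = 4), and LSK cells with sh10 (n = 3), sh20 (n = 3) or *Renilla* (n = 4). The strain label was C57BL6 for every library, and every group carried a vector and received doxycycline, the *Renilla* group included. The methods of the study give, for inducible shRNAs, recipients that carry the W41 allele of *Kit*. Libraries were lettered A to D within a group. Nothing states that a letter is a separate animal, so p-values measure only the spread between these libraries, which may be technical. No gene listed is named *Spehd*, so the depletion itself was not checked here. The guide strands of the hairpins, which define the groups compared, are:

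sh10: tacaaagtcagcttttcctctc
sh20: tatgctatgacaacccagggca

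Mast cells and basophils bind IgE through the high-affinity receptor FcεRI, whose ligand-binding alpha chain is encoded by *Fcer1a* and whose signal-amplifying beta chain is encoded by *Ms4a2*. Crosslinking of the receptor empties granules in which proteases and histamine are held on the proteoglycan serglycin. Basophils, mast cells and eosinophils arise from bone marrow progenitors under factors that include GATA1, GATA2 and C/EBPα, and their granule genes can be transcribed in progenitors before granules form. Bulk RNA cannot tell fewer cells of a type from less RNA per cell, and this holds for every value here.

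Between 3647318 and 5965155 counts fell on genes per library (median 4918631). In CMPs the totals did not overlap between hairpins against *Spehd* (4918631 to 5965155) and *Renilla* (3857980 to 4314959). *Ly6a*, which encodes Sca1, ran from 39.9 to 81.7 CPM (the count of a gene scaled to the size of its library after TMM normalization) in LSK cells and from 1.58 to 9.83 CPM in CMPs, and *Kit* was at 395 CPM or more in all 19 libraries. The summed level of 9 erythroid markers was 1580 to 1976 CPM in CMPs and 429 to 617 CPM in LSK cells. In the library CMP sh20 C, 6 B cell markers summed to 140.0 CPM, against 0.790 to 11.9 CPM in the other 18 libraries. The 9 T and NK cell markers summed to 116 to 144 CPM in CMPs with sh10, 191 to 280 CPM with sh20 and 289 to 387 CPM with *Renilla*.

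The genes covered a wide range of levels. On the scale of mean CPM per kilobase of exon, the order in LSK cells was *Mcpt8* (121), *Prg2* (106), *Cpa3* (97.1), *Srgn* (81.7), *Fcer1a* (50.1), *Epx* (45.1), *Ms4a2* (19.3), *Hdc* (12.2), *Gzmb* (8.04) and *Il1rl1* (1.76). In CMPs *Srgn* (81.8) and *Cpa3* (58.5) led on the same scale, followed by *Prg2* (31.9), *Mcpt8* (12.9), *Il1rl1* (10.7), *Fcer1a* (6.70), *Gzmb* (3.78), *Ms4a2* (3.74), *Epx* (3.29) and *Hdc* (1.5). Summed over the 10 genes, LSK libraries held 466 to 1551 CPM and CMP libraries 372 to 513 CPM, so the ranges overlapped. *Mcpt8*, *Hdc* and *Il1rl1* were the 3 genes whose ranges did not overlap between the 9 CMP and the 10 LSK libraries. How many of all genes had no such overlap was not counted.

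**Figure D1:**
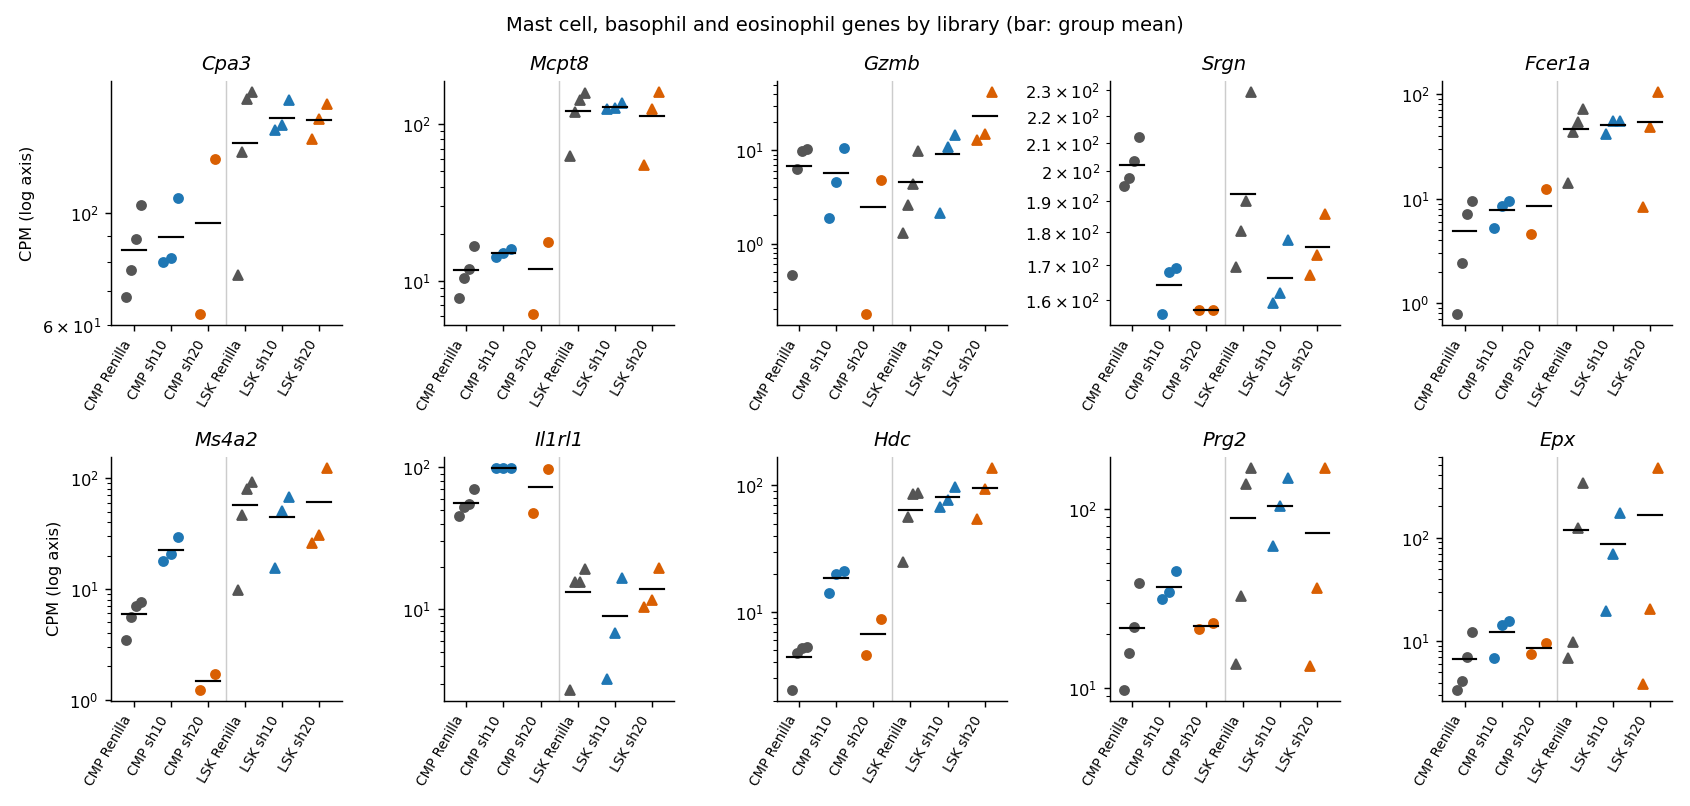
Level of each gene in each of the 19 libraries, in CPM on a log axis, by cell type and hairpin. Circles are CMP libraries, triangles are LSK libraries, and bars are group means; *Mcpt8* and *Hdc* were higher in every LSK library, and *Il1rl1* was higher in every CMP library.

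Promoter windows of the IgE receptor subunits and of *Il1rl1* are shown because the former were lower and the latter higher in CMPs, and because GATA factors are known regulators of mast cell and basophil genes. Each is the 250 bases before the RefSeq start on GRCm38.p6, 5′ to 3′ on the strand of the gene, and capitals mark matches, on either strand, to the word AGATAA, to the word AGATAG, to the word TGATAA or to the word TGATAG. *Ms4a2* is on chr19:11623720-11623969 (minus strand), *Fcer1a* on chr1:173227230-173227479 (minus strand) and *Il1rl1* on chr1:40429320-40429569 (plus strand, the first of 2 start sites listed).

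Ms4a2: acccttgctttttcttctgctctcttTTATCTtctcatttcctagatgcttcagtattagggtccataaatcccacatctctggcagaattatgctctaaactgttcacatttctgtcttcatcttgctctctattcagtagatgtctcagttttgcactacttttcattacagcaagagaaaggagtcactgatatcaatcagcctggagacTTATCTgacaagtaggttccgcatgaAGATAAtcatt
Fcer1a: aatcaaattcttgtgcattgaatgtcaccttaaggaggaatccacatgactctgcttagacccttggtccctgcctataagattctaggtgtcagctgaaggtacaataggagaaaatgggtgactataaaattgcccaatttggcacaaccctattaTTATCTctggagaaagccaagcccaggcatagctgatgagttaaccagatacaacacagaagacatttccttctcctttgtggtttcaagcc
Il1rl1: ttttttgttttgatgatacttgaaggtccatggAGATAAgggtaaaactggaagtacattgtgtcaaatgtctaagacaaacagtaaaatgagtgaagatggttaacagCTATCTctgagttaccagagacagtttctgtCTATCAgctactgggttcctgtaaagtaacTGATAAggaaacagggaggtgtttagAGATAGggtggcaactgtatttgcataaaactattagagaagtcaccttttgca

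The *Ms4a2* window held 3 matches, the nearest 11 bases before the start. That of *Fcer1a* held 1 match, and that of *Il1rl1* held 5. Matches of different words were each counted, whether or not they overlapped. RefSeq windows were matched for 9 of the 10 genes, all but *Prg2*, and 6 of their 11 windows held a match, among 26.5% of all 32851 windows of this length. *Mcpt8*, *Gzmb*, *Epx* and both windows of *Srgn* held none. The gene that was higher in CMPs and the receptor genes that were lower both held matches. A match describes letters in a window and not a bound site.

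The first comparison asked how the genes differed between CMPs and LSK cells under the control hairpin. Of the 10 genes, 6 were lower in CMPs and 1 was higher by the quasi-likelihood test of edgeR (adjusted by Benjamini-Hochberg over 15066 genes). Over all genes tested, 8.73% were called lower and 11% higher. Which direction held more genes depended on the setting, with 1663 higher and 1316 lower here, 1212 and 1412 with upper quartile normalization, and 1166 and 1801 with no filter on low counts. DESeq2 called 7 lower and 1 higher, against 22.2% called in either direction among the genes to which it gave an adjusted p. The median log2 fold change was -2.62 for the 10 genes and -0.02 for all genes.

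Among proteases, *Mcpt8* (ENSMUSG00000022157.8, chr14:56082166-56085273, minus strand) encodes mast cell protease 8, a marker of mouse basophils. Its level in *Renilla* CMPs was 11.9, 7.80, 10.4 and 16.7 CPM in libraries A to D, and 119.6, 143, 63.0 and 158 CPM in *Renilla* LSK cells. Every LSK value lay above every CMP value. The mean was 11.7 ± 3.73 (SD, n = 4) in CMPs and 120.8 ± 41.6 (SD, n = 4) in LSK cells, a log2 fold change of -3.37 (SE 0.38, adjusted p = 1.298e-05). Its LSK counts were 231 to 746 over 998 exonic bases, after removal of duplicate alignments. *Cpa3* (ENSMUSG00000001865.2, chr3:20215620-20242181, minus strand), the carboxypeptidase of mast cell granules, changed far less. It ran from 68.2 to 104 CPM in *Renilla* CMPs and from 75.3 to 174 CPM in *Renilla* LSK cells, with the single overlapping value in LSK Renilla C. Its log2 fold change was -0.71 (SE 0.24, adjusted p = 0.0437). This call was lost without CMP sh10 A or B, CMP Renilla A, B or C, LSK sh10 A, or LSK Renilla A, B or D, with adjusted p from 0.00579 to 0.140 over the 19 leave-outs, and with log2 total counts as a covariate (-0.52, adjusted p = 0.167). *Gzmb* (ENSMUSG00000015437.5, chr14:56258838-56262260, minus strand) encodes granzyme B, which cytotoxic lymphocytes also store. Its *Renilla* levels overlapped, at 0.464 to 10.2 CPM in CMPs and 1.29 to 9.93 CPM in LSK cells (adjusted p = 0.723).

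*Srgn* (ENSMUSG00000020077.14, chr10:62493833-62527451, minus strand) encodes serglycin, the granule proteoglycan, and blood cells of many kinds express it. It was at 195 to 212 CPM in *Renilla* CMPs and at 170 to 229 CPM in *Renilla* LSK cells. The ranges overlapped, and the log2 fold change was 0.07 (SE 0.09, adjusted p = 0.607).

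Both FcεRI genes were lower in CMPs. *Fcer1a* (ENSMUSG00000005339.10, chr1:173221284-173227214, minus strand) was at 0.790, 2.44, 9.51 and 7.12 CPM in *Renilla* CMPs A to D and at 43.9, 54.4, 14.2 and 71.7 CPM in *Renilla* LSK cells. All LSK values were above all CMP values, and the level in CMPs was 9.17-fold lower (log2 fold change -3.20, SE 0.71, adjusted p = 0.00450). *Ms4a2* (ENSMUSG00000024680.12, chr19:11615523-11623719, minus strand) was at 7.64, 7.07, 5.57 and 3.44 CPM in CMPs and at 46.5, 91.6, 9.82 and 79.9 CPM in LSK cells. Again no value overlapped, with a log2 fold change of -3.27 (SE 0.66, adjusted p = 0.00237). LSK Renilla C was the lowest LSK library of its group for both genes.

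*Hdc* (ENSMUSG00000027360.5, chr2:126593667-126619299, minus strand) encodes histidine decarboxylase, which makes histamine. Its levels in libraries A to D were 4.74, 2.44, 5.34 and 5.15 CPM in *Renilla* CMPs and 56.4, 86.4, 24.8 and 85.9 CPM in *Renilla* LSK cells. The groups did not overlap, and the log2 fold change was -3.84 (SE 0.42, adjusted p = 9.656e-06), a 14.3-fold lower level in CMPs.

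*Il1rl1* (ENSMUSG00000026069.15, chr1:40429570-40465415, plus strand), which encodes the IL-33 receptor ST2, ran the other way. It was at 54.8, 69.7, 45.5 and 52.3 CPM in *Renilla* CMPs and at 15.6, 19.3, 2.73 and 15.6 CPM in *Renilla* LSK cells. Every CMP value was above every LSK value, a 4.12-fold higher level in CMPs (log2 fold change 2.04, SE 0.45, adjusted p = 0.00450).

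Of the 10 genes, the eosinophil granule genes varied most among the *Renilla* LSK libraries, *Epx* by 49.4-fold and *Prg2* by 12.5-fold. *Epx* (ENSMUSG00000052234.2, chr11:87864000-87875536, minus strand), which encodes eosinophil peroxidase, was at 3.41 to 12.3 CPM in *Renilla* CMPs and at 123, 6.83, 9.82 and 337 CPM in *Renilla* LSK cells A to D. Libraries B and C of LSK lay within the CMP range. The log2 fold change was -4.14 (SE 1.34, adjusted p = 0.0382), and the call was lost without any 1 of the CMP Renilla libraries or without LSK Renilla A or D, with adjusted p from 0.0119 to 0.154 over the leave-outs. *Prg2* (ENSMUSG00000027073.5, chr2:84980461-84983632, plus strand), which encodes major basic protein, was at 9.75 to 38.8 CPM in CMPs and at 138, 13.7, 32.7 and 170.4 CPM in LSK cells. The ranges overlapped, and the log2 fold change of -2.05 (SE 0.74) had an adjusted p of 0.0618 by edgeR and 0.0345 by DESeq2.

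The same contrast under the hairpins against *Spehd* uses other libraries but 1 shared fit. With sh10, 3 of the 10 genes were lower and 1 was higher in CMPs, against 8.58% and 7.51% of all genes. With upper quartile normalization the all-gene calls were 764 higher and 1629 lower, against 1131 and 1293. With sh20, 3 were lower and 1 higher, against 8.64% and 5.94%. *Mcpt8*, *Hdc* and *Il1rl1* were called under all 3 hairpins. The *Mcpt8* log2 fold change was -3.09 (SE 0.42, adjusted p = 1.066e-04) with sh10 and -3.25 (SE 0.50, adjusted p = 3.652e-04) with sh20. *Hdc* was lower by -2.12 (SE 0.42, adjusted p = 0.00224) and -3.82 (SE 0.54, adjusted p = 1.839e-04). *Il1rl1* was higher by 3.46 (SE 0.55, adjusted p = 3.874e-04) and 2.38 (SE 0.56, adjusted p = 0.00867), and the sh20 call was lost without CMP sh20 B, at an adjusted p of 0.0909, and with total counts as a covariate (1.42, adjusted p = 0.141). *Fcer1a* passed with sh10 at -2.72 (adjusted p = 0.0241), but not without any 1 of the 3 CMP sh10 libraries. *Ms4a2* passed with sh20 at -5.34 (SE 1.03, adjusted p = 0.00230) and had a value of -0.97 (SE 0.67, adjusted p = 0.368) with sh10. In a fit of the sh20 libraries only, *Ms4a2*, *Mcpt8* and *Il1rl1* no longer passed, and 1 gene, *Hdc*, remained, while the all-gene calls went from 895 higher and 1302 lower to 142 and 151.

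**Figure D2:**
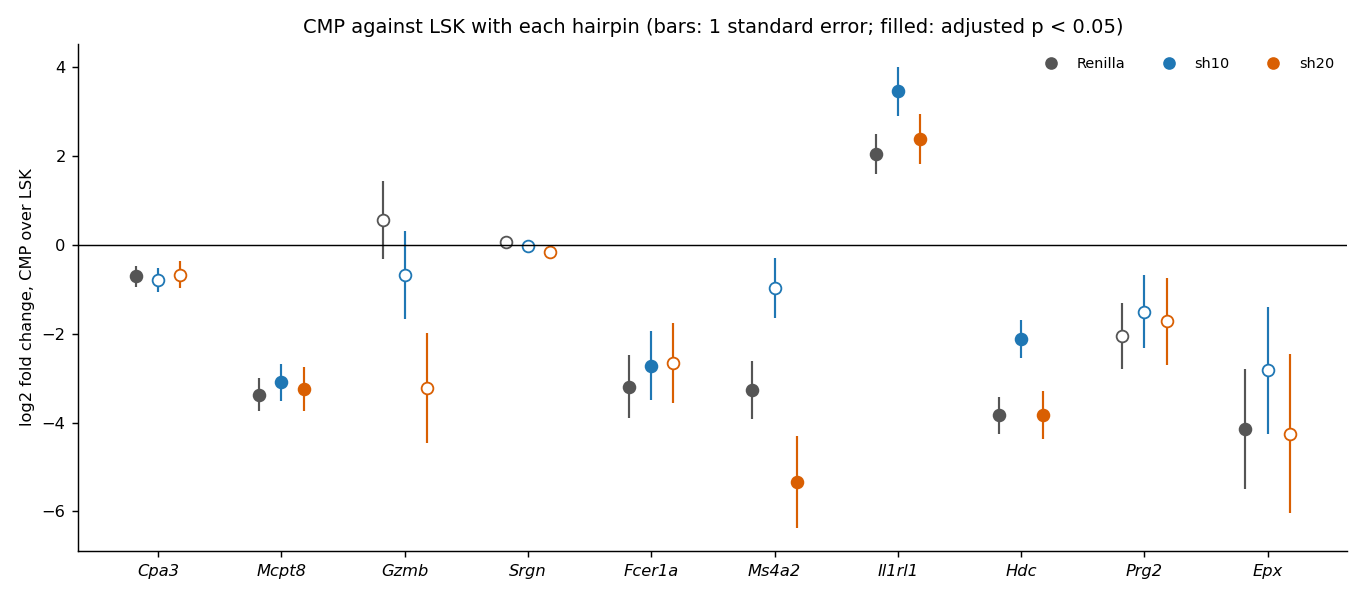
Log2 fold change of CMPs over LSK cells for each gene under each hairpin, with bars of 1 standard error. Filled points passed an adjusted p of 0.05; *Mcpt8* and *Hdc* lay below 0 and *Il1rl1* above 0 under all 3 hairpins.

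LSK sh20 A and LSK Renilla C were the lowest LSK libraries for *Mcpt8* (54.8 and 63.0 CPM), for *Hdc* (53.8 and 24.8 CPM) and for *Fcer1a* (8.28 and 14.2 CPM). Both libraries were chosen after their low values in these genes were seen. Without both libraries, 8 genes were called with *Renilla*, 5 with sh10 and 5 with sh20, and every earlier call was kept. Over all genes, 1537 were then called higher and 1097 lower with *Renilla*, 1135 and 1257 with sh10, and 746 and 1000 with sh20. Leaving out low LSK libraries raises LSK means with *Renilla* and sh20. Keeping calls of lower levels in CMPs is therefore no further support for them. The comparison of cell types moved with other lineages. Of 11 neutrophil and GMP markers 10 were lower in *Renilla* CMPs, against 8.73% of all genes. The marker sums were 388 to 631 CPM in CMPs and 759 to 1246 CPM in LSK cells. None of these 11 was at 0 in all libraries of a cell type. Of other marker lists, 8 of 9 erythroid, 5 of 7 megakaryocyte and 6 of 9 T and NK cell markers were higher in *Renilla* CMPs than in *Renilla* LSK cells, against 11% of all genes. The part of any of these cells in the result was not tested.

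Other genes of these cells, in lists chosen for their roles, were counted for the same contrast of *Renilla* libraries. Over all genes tested, 8.73% were lower and 11% higher in CMPs. Of 19 other granule proteins 12 were tested, 5 were lower in CMPs and 1 was higher. *Prss34*, a basophil protease, was at 31.6 ± 6.15 CPM in CMPs and 226 ± 26.0 CPM in LSK cells (SD, n = 4 each), a log2 fold change of -2.83 (adjusted p = 4.452e-08). *Tpsb2*, a mast cell tryptase, was at 0.119 ± 0.137 and 19.1 ± 15.2 CPM (adjusted p = 0.0169). Of 20 other receptors 19 were tested, 5 were lower and 2 higher. *Csf2rb*, the beta chain shared by receptors of IL-3, IL-5 and GM-CSF, had a log2 fold change of -2.12 (adjusted p = 1.241e-06). *Cd200r3*, a basophil and mast cell receptor, had one of -4.06 (adjusted p = 9.675e-04). The receptors that were higher in CMPs, named after their values were seen, were *Siglecf*, a marker of eosinophils, at 33.5 ± 9.39 against 18.2 ± 6.58 CPM (log2 fold change 0.88, adjusted p = 0.0372), and *Ptgdr2*, a prostaglandin D2 receptor of basophils and eosinophils (1.21, adjusted p = 0.0495). Of 14 mediators and their enzymes 12 were tested and 2 were lower, *Cyp11a1* at -3.50 (adjusted p = 2.249e-04) and *Alox5ap*, the 5-lipoxygenase activating protein, at -0.76 (adjusted p = 0.00118).

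Genes downstream of the receptor and transcription factors moved in both directions. Of 16 genes of FcεRI signalling 4 were lower and 1 was higher, and their median was -0.14. Of 19 transcription factors 5 were lower in CMPs and 4 were higher. Over all genes tested, 8.73% were lower and 11% higher. *Gata1*, which the erythroid, mast cell and eosinophil lineages share, was higher at 296 ± 18.01 CPM in CMPs against 70.7 ± 9.40 CPM in LSK cells (log2 fold change 2.07, adjusted p = 5.153e-07). *Cebpe* and *Cebpa*, which act in granulocyte differentiation, were lower, by -4.25 (adjusted p = 2.584e-04) and -1.50 (adjusted p = 0.00328).

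The second comparison asked whether the genes changed with *Spehd* hairpins in CMPs. With sh10 against *Renilla*, 2 of 10 were higher and 1 was lower, while 0.977% of 13824 genes were called higher and 0.991% lower. Upper quartile normalization called 113 higher and 338 lower, and no filter on low counts gave 500 and 297, against 135 and 137. With sh20 against *Renilla*, 0 were higher and 2 lower, while 1.9% of genes were called higher and 4.27% lower, and upper quartile normalization called 213 and 850, and no filter 627 and 585, against 263 and 590. Both comparisons share the *Renilla* libraries. Between the hairpins, sh20 against sh10, 1 gene was lower and 0 were higher, against 3.64% and 2.77% of genes. At an unadjusted p under 0.05 the counts of genes were 4, 2 and 2 of 10, against 21.2%, 24.6% and 26.5% of all genes, so 2 of 10 was below the share of all genes. DESeq2 called 4, 2 and 2 of 10, against 8.83%, 11.1% and 13.3% of the genes to which it gave an adjusted p. The all-gene counts of edgeR depended on single libraries. Leaving out any 1 CMP library other than Renilla B moved those for sh10 by more than 1.5 times, to between 2 and 611 higher and between 6 and 416 lower. With 1 library left out the counts for sh20 ran from 101 to 1398 higher and from 311 to 1793 lower, and those between hairpins from 26 to 1561 and from 58 to 1923, the highest of each without CMP sh20 C. After the logarithm of the total count was added to the fit, edgeR called 0 of the 13824 genes in each of the 3 comparisons, so a call lost there is not particular to a gene.

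*Ms4a2* moved in opposite directions with the hairpins. It was at 17.9, 20.5 and 29.7 CPM in CMPs with sh10 (libraries A, B and C), at 1.69 and 1.23 CPM with sh20 (B and C) and at 3.44 to 7.64 CPM with *Renilla*. The 3 groups did not overlap. The counts behind these levels were 85 to 142 with sh10, 7 and 10 with sh20 and 14 to 29 with *Renilla*. The log2 fold change against *Renilla* was 1.93 with sh10 (SE 0.34, adjusted p = 0.0312) and -1.98 with sh20 (SE 0.46, adjusted p = 0.0367). Between hairpins it was -3.91 (SE 0.49, adjusted p = 0.00793), a 15.1-fold lower level with sh20. This difference passed in 9 of 9 leave-outs, with adjusted p from 0.00303 to 0.0343, and in 5 of 7 other alternatives, with adjusted p from 9.523e-10 to 0.251. The sh10 call was lost without any 1 of the sh10 libraries or without Renilla A, C or D (adjusted p 0.00893 to 0.127 over leave-outs). The sh20 call passed only without Renilla D, and was otherwise lost (adjusted p 0.0331 to 0.0727). When log2 total counts entered the fit as a covariate, none of the 3 calls passed, and the log2 fold changes were 2.21, -1.51 and -3.71 (adjusted p 0.989, 1 and 0.251). With all 19 libraries in 1 fit the calls of sh10 and sh20 against *Renilla* were lost as well (adjusted p 0.203 and 0.269), and each passed in 4 of 7 such alternatives. CMP sh20 C carried the B cell markers described above.

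*Hdc* was higher with sh10. Its levels were 14.1, 21.1 and 20.0 CPM with sh10, 4.58 and 8.78 CPM with sh20 and 2.44 to 5.34 CPM with *Renilla*. The sh10 values did not overlap with those of either other group. The log2 fold change was 2.05 (SE 0.37, adjusted p = 0.0333) with sh10 and 0.60 (SE 0.42, adjusted p = 0.413) with sh20. The sh10 call was lost without any 1 of the sh10 libraries or without Renilla A, C or D (adjusted p 0.00696 to 0.158), and with log2 total counts as a covariate (0.989). Between hairpins the difference was -1.44 (SE 0.45), with an adjusted p of 0.0823 by edgeR and 0.0287 by DESeq2.

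*Il1rl1* levels with sh10 were nearly identical, at 98.0, 98.3 and 98.8 CPM, against 45.5 to 69.7 CPM with *Renilla*. The groups did not overlap, yet the log2 fold change of 0.82 (SE 0.22) had an adjusted p of 0.0836 by edgeR and 0.0117 by DESeq2. With sh20 the value of 96.8 CPM was above and that of 47.4 CPM within the *Renilla* range.

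*Srgn* was lower with both hairpins in CPM. It was at 169, 156 and 168 CPM with sh10, at 157.4 and 157.3 CPM with sh20 and at 203.5, 195, 198 and 212 CPM with *Renilla*. The log2 fold change was -0.30 (SE 0.06, adjusted p = 0.0473) with sh10 and -0.35 (SE 0.07, adjusted p = 0.0263) with sh20. The raw counts were 778 to 804 with sh10 (mean 795), 896 and 929 with sh20 (mean 912), and 773 to 864 with *Renilla* (mean 822), so those with sh10 lay within the *Renilla* range and those with sh20 above it. Over all 19 libraries *Srgn* held 773 to 942 counts, a coefficient of variation of 6.21%, which was lower in 0.92% of 13145 genes. Its log2 CPM had a Pearson r of -0.94 with log2 total counts (n = 19 libraries), as a near-constant count gives by construction. At 0.391 counts per exonic base it lay above 96.9% of these genes, and duplicate alignments had been removed before counting. *Cpa3* (0.388), *Mcpt8* (0.349) and *Prg2* (0.347) had nearly the same counts per exonic base, above 96.7%, 95.6% and 95.5% of genes. Whether the removal of duplicates held down the levels and fold changes of these 4 genes was not tested. When log2 total counts entered the fit, the *Srgn* fold changes were -0.14 and -0.07, and neither passed (adjusted p 0.989 and 1), like all other genes in that fit. Both calls were also lost with no filter on low counts (adjusted p 0.0875 and 0.0668) and with all 19 libraries in 1 fit (0.155 and 0.0678). The sh10 call was kept only without CMP sh20 B or C (adjusted p 0.0291 to 0.206 over leave-outs). The sh20 call was lost without CMP sh10 A, sh20 B, Renilla A or Renilla D (adjusted p 0.0377 to 0.0665).

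The other 6 genes were not called with either hairpin in CMPs, and their levels overlapped the *Renilla* levels. *Cpa3* had log2 fold changes of 0.08 (SE 0.24) with sh10 and 0.19 (SE 0.27) with sh20. *Mcpt8* had 0.36 (SE 0.38) and 0.04 (SE 0.43), and *Fcer1a*, the partner of *Ms4a2* in the receptor, had 0.63 (SE 0.70) and 0.79 (SE 0.78). *Prg2* had 0.77 (SE 0.39) and 0.06 (SE 0.44), and *Epx* 0.86 (SE 0.48) and 0.37 (SE 0.54). *Gzmb* had -0.23 (SE 1.01) and -1.41 (SE 1.24), and it ranged from 1 to 28 counts in the sh20 libraries. The 9 T and NK cell markers, 6 of which were lower with sh10 and 1 with sh20, moved in the same libraries, and their part in *Gzmb* levels was not tested.

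With both hairpins against *Spehd* as 1 group of 5 CMP libraries, edgeR called 0 of 10 genes, 3 had an unadjusted p under 0.05 (16.6% of all genes), and DESeq2 called *Il1rl1* higher and *Srgn* lower and gave no adjusted p for 6 of the genes. Of 12912 genes 0.0387% were called higher and 0.0774% lower. Upper quartile normalization called 44 higher and 284 lower genes, against 5 and 10.

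**Figure D3:**
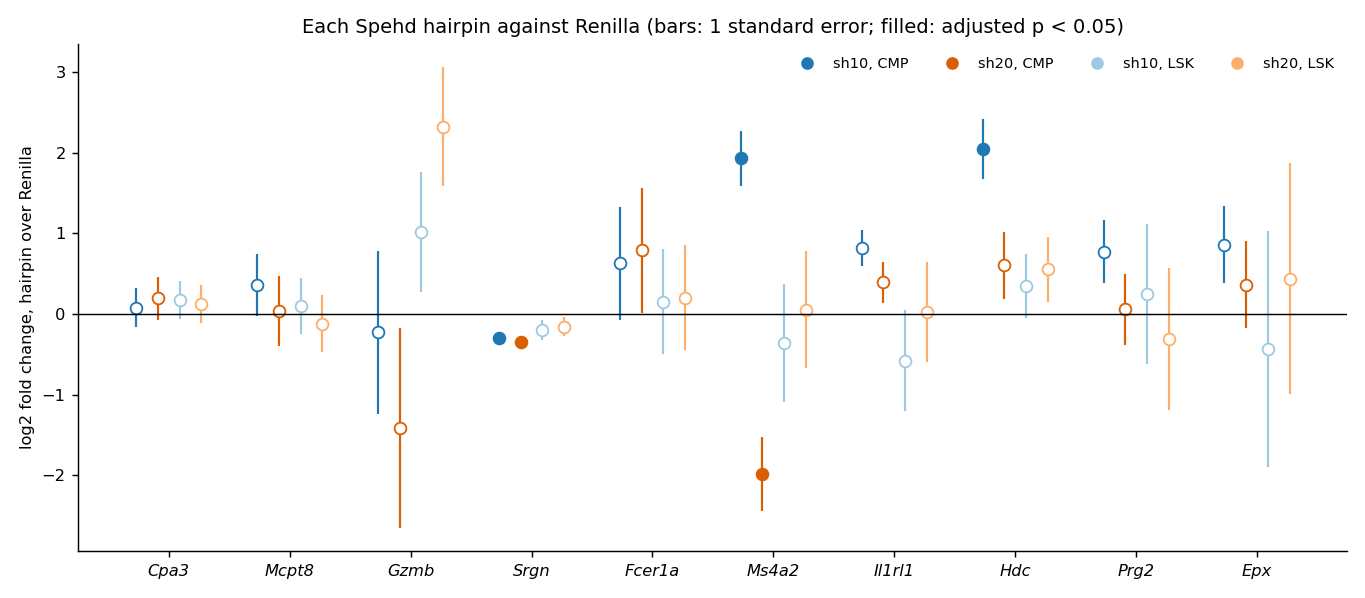
Log2 fold change of each hairpin against *Spehd* over *Renilla* for each gene in CMPs (dark) and LSK cells (light), with bars of 1 standard error. Filled points passed an adjusted p of 0.05; *Ms4a2* was at 1.93 with sh10 and -1.98 with sh20 in CMPs.

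Among the other lists, few genes passed in CMPs. With sh10 against *Renilla* 0 of 7 other granule proteins, 0 of 14 other receptors and 0 of 9 mediators and enzymes tested were called by edgeR. At an unadjusted p under 0.05 the counts in these lists were 4, 2 and 5, and DESeq2 called 1, 1 and 4 of the same genes tested, against the shares of 21.2% and 8.83% over all genes. In FcεRI signalling *Lat*, an adaptor of T cells and mast cells, was lower (-0.83, adjusted p = 0.0487). Among transcription factors *Irf8* was higher (1.86, adjusted p = 0.0158) and *Id2* was lower (-1.20, adjusted p = 0.0374). With sh20 *Btk* was higher (0.48, adjusted p = 0.0382). Between hairpins, 4 of 9 mediator genes tested were higher with sh20 and 0 lower, against 2.77% and 3.64% of all genes. They were *Ptgs1* (1.73), *Alox5* (1.46), *Hpgds* (2.93) and *Slc18a2* (0.65), with adjusted p from 0.0134 to 0.0389. These encode enzymes of prostaglandin and leukotriene synthesis and the vesicular monoamine transporter. In the same libraries 3 of 7 megakaryocyte markers were higher with sh20 than with sh10, with sums of 1686 to 1717 CPM against 859 to 1129 CPM, and their part was not tested.

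In LSK cells no gene was called with either hairpin. With sh10, sh20, sh20 against sh10, and both hairpins as 1 group, edgeR called 0 of 10 genes and 0% of all genes tested in each direction. At an unadjusted p under 0.05 the counts were 0, 1, 0 and 1, against 3.3%, 8.33%, 9.17% and 3.66% of all genes, and DESeq2 called 0 of 10 in each, and 3, 195, 256 and 0 genes in all. The gene under that p was *Gzmb*. It was at 42.0, 12.9 and 14.9 CPM with sh20 (A, B and C) and at 9.93, 2.61, 4.36 and 1.29 CPM with *Renilla*, without overlap. The log2 fold change was 2.32 (SE 0.74, adjusted p = 0.377 by edgeR and 0.0906 by DESeq2). The T and NK cell markers summed to 152 to 190 CPM in these sh20 libraries and to 143 to 178 CPM with *Renilla*. *Ms4a2* was at 50.1, 15.3 and 67.6 CPM with sh10 and at 26.2, 124 and 30.9 CPM with sh20, both overlapping the *Renilla* values, with log2 fold changes of -0.36 (SE 0.73) and 0.05 (SE 0.72). The standard errors of 0.65 or more for *Fcer1a*, *Ms4a2*, *Prg2* and *Epx* per hairpin against *Renilla* leave room for differences of more than 2-fold in either direction.

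Whether a hairpin acted differently in CMPs and LSK cells was tested as an interaction. For sh10 edgeR called 0 of 10 genes, against 0% higher and 0.0199% lower of 15066 genes, and 2 had an unadjusted p under 0.05 (7.76% of all genes). For sh20 it called 0 of 10, against 0.106% and 0.478%, and 1 had such a p (13.8% of all genes). DESeq2 called 0 in both. For *Ms4a2* the interaction was 2.30 (SE 0.93, adjusted p = 0.639) with sh10 and -2.07 (SE 1.16, adjusted p = 0.446) with sh20. For *Hdc* with sh10 it was 1.72 (SE 0.57, adjusted p = 0.620). The changes of these genes in CMPs were therefore not shown to differ from those in LSK cells.

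Among LSK libraries *Epx* had the widest range of the 10 genes. *Epx* spanned 3.86 to 471 CPM over the LSK libraries, a 122-fold range with 21 to 2190 counts, and *Prg2* spanned 13.2 to 170.5 CPM, a 12.9-fold range. Both ends of the ranges were in 1 group, sh20, in libraries C and B. Other genes ranged in LSK cells from 1.44-fold for *Srgn*, 2.31-fold for *Cpa3* and 2.93-fold for *Mcpt8* to 12.6-fold for *Ms4a2*, 12.7-fold for *Fcer1a* and 32.4-fold for *Gzmb*, so the range of *Prg2* was near those of the receptor genes. In CMPs the ranges of *Epx* and *Prg2* were 4.59-fold and 4.61-fold, below those of *Gzmb*, *Ms4a2*, *Fcer1a* and *Hdc* (8.66-fold or more). Across the 19 libraries *Prg2* and *Epx* had a Pearson r of 0.96 in log2 CPM and also 0.96 in deviations from the group means. The latter r was 0.97 in the 10 LSK and 0.90 in the 9 CMP libraries. The gene most like the pair in level, after each other, was *Prg3*, another eosinophil granule protein (r = 0.91 with *Prg2* and 0.95 with *Epx*, n = 19). Libraries share depth and cell source, so these correlations are descriptions.

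**Figure D4:**
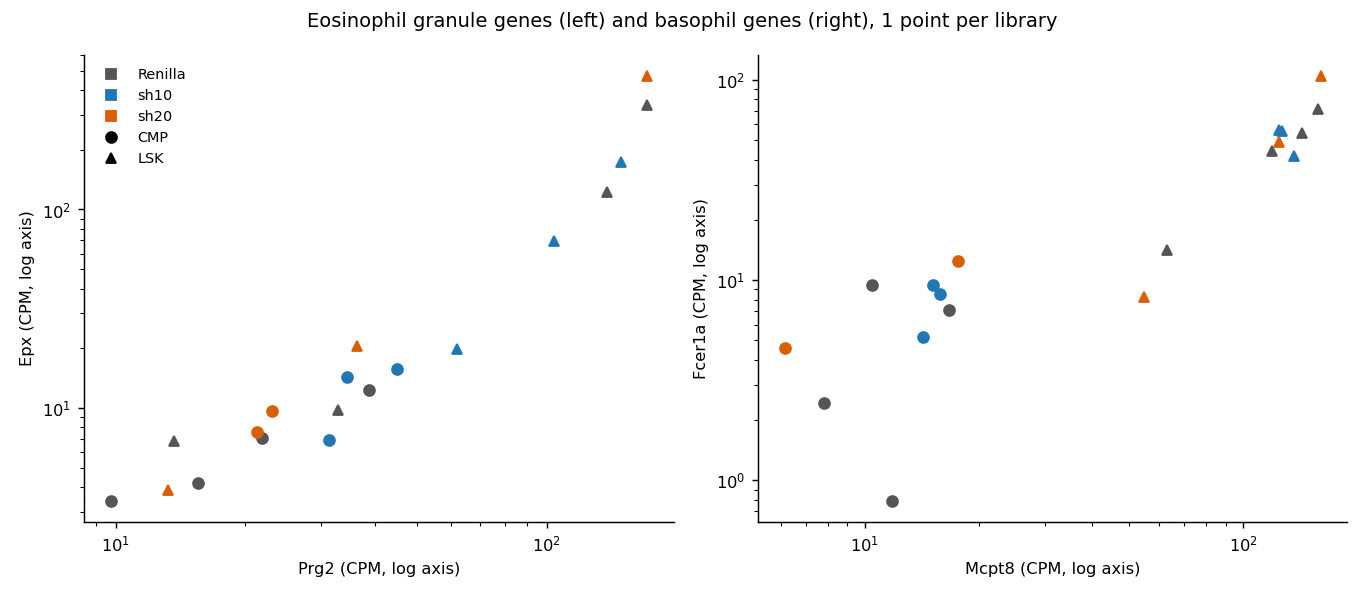
Level of *Epx* against *Prg2* (left) and of *Fcer1a* against *Mcpt8* (right), in CPM on log axes, with 1 point per library. Over LSK libraries *Epx* ran from 3.86 to 471 CPM along with *Prg2*, while LSK sh20 A and LSK Renilla C, the 2 lower triangles on the right, were low in both *Mcpt8* and *Fcer1a*.

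The basophil and mast cell genes formed another set in LSK cells. In deviations from the group means over the 10 LSK libraries, *Mcpt8* had r = 0.97 with *Fcer1a* and 0.94 with *Hdc*, and *Ms4a2* had r = 0.92 with *Il1rl1*. The r of *Mcpt8* was 0.31 with *Prg2* and 0.44 with *Epx*. In the 9 CMP libraries the same pairs had r = 0.45 for *Mcpt8* with *Fcer1a*, -0.12 for *Mcpt8* with *Hdc* and 0.40 for *Ms4a2* with *Il1rl1*. CMP counts were low for *Fcer1a* (3 to 74), *Ms4a2* (7 to 142), *Mcpt8* (32 to 104) and *Hdc* (10 to 105), while *Il1rl1* had 196 to 571 counts in CMPs and 10 to 96 in LSK cells. LSK Renilla C, with the lowest total of all libraries (3647318), was the lowest LSK library for *Cpa3*, *Ms4a2*, *Hdc* and *Il1rl1*. Its part in the LSK correlations was not tested. *Il1rl1* and *Ms4a2* had r = -0.39 in level over all 19 libraries and 0.88 in deviations, since the cell types differed in opposite directions. By level, the gene most like *Mcpt8* among 10484 was *Prss34* (r = 0.98), followed by *Rps6ka1* and *Csf2rb* (both 0.95). The gene most like *Ms4a2* was *Ptger4* (0.94), that most like *Hdc* was *Hk3* (0.95), that most like *Fcer1a* was *Slc7a8* (0.92), and that most like *Cpa3* was *Lmo4* (0.91). For *Srgn* it was *Arhgdib* (0.96) and for *Il1rl1* it was *Klhl12* (0.95). *Gzmb*, with a mean of 42.4 counts, was under the minimum of 50 for this comparison.

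**Figure D5:**
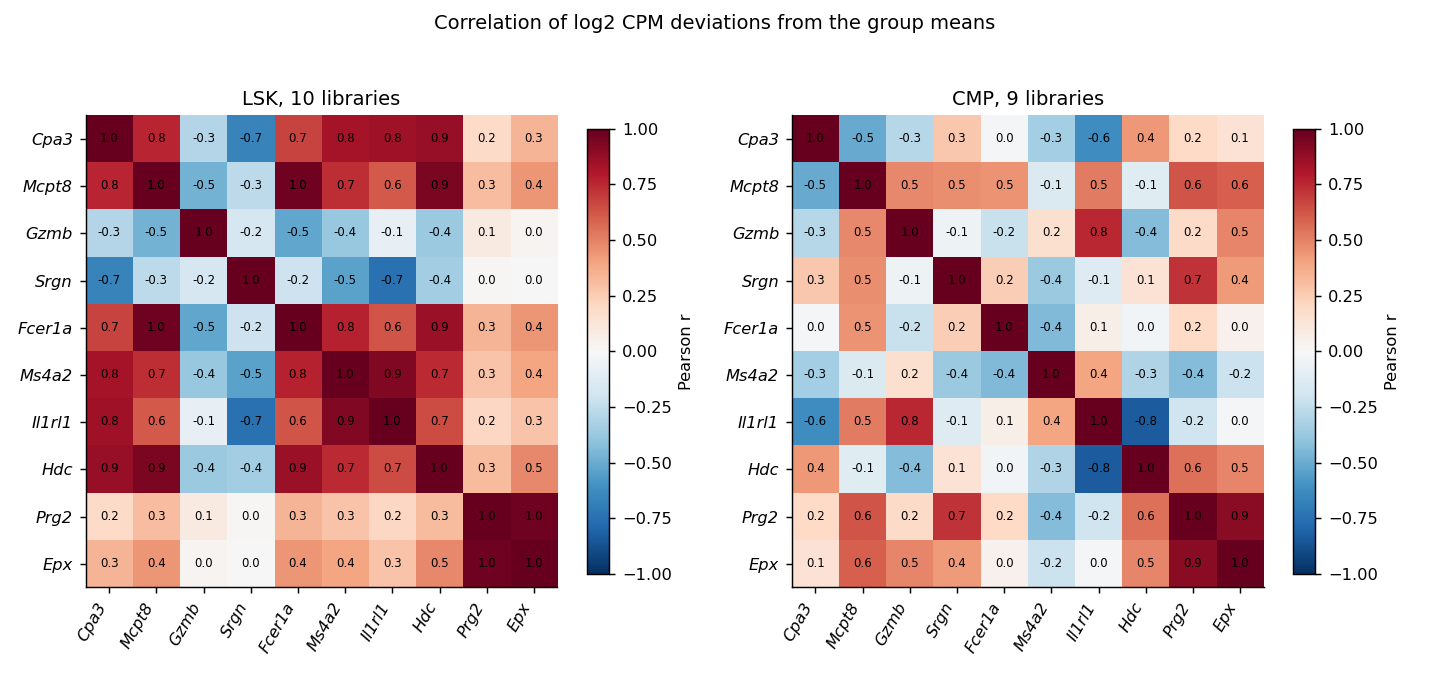
Pearson correlation of deviations of log2 CPM from the group means for each pair of the 10 genes, over 10 LSK libraries (left) and 9 CMP libraries (right). In LSK cells *Cpa3*, *Mcpt8*, *Fcer1a*, *Ms4a2*, *Il1rl1* and *Hdc* form a block of positive values, and *Prg2* and *Epx* form a second. Values between the blocks were lower but also positive (0.19 to 0.48).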

How the data were processed

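RNA of sorted CMPs and LSK cells was measured in 19 libraries made with the SMART-Seq v4 kit. Per the labels and the study's methods, the authors used STAR on mm10, Picard to drop duplicates and HTSeq to count reads per gene. The deposited values are whole counts without normalization. The strand setting of the counting is not given in the sources used here. Reads on no gene, 51.9% to 53.8% of reads on genes or none, were left out of totals. The members and lists were chosen with earlier results of these data known. CPM was computed by edgeR on library sizes scaled by TMM factors. Identifiers and positions are those of GENCODE vM21 (GRCm38), promoters came from RefSeq on GRCm38.p6, and guides from the study's oligo list.

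Counts were tested with edgeR 4.0.16 (TMM, filterByExpr at a count of 10 and a total of 15, quasi-likelihood, Benjamini-Hochberg over all genes tested, threshold 0.05) in R 4.3.3. Cell types and interactions were compared in 1 fit of all 19 libraries, and hairpins within each cell type. Likeness used log2 CPM with a prior count of 2 over genes whose mean count was 50 or more. Alternatives were DESeq2 1.42.0, its size factors, upper quartile normalization, no filter, the replicate letter as a block, log2 total counts as a covariate, other sets of libraries and each library left out. All 10 genes were tested in every comparison and enter its counts, but values are not printed for every gene in each comparison. Of other lists at most the 4 with the smallest adjusted p are named, plus receptors named as an exception. Of the genes called in these lists, 1 is not reported here. Lists not described in the results are monocyte and macrophage markers (3 of 7 lower in *Renilla* CMPs than in LSK cells), stem cell markers (4 of 8 lower) and sort gate genes (4 of 7 lower), against 8.73% of all genes. Python 3.11.15, numpy 2.4.6, pandas 2.3.3 and matplotlib 3.10.9 were used.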

Additional observations from a re-analysis of the deposited data

Results flagged for a closer look

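In CMPs the hairpins moved *Ms4a2* in opposite directions against *Renilla*, and the difference between them, sh20 minus sh10, was a log2 fold change of -3.91 by edgeR's quasi-likelihood test (adjusted p = 0.00793). It passed in 9 of 9 leave-outs and in 5 of 7 other alternatives, and was lost with log2 total counts as a covariate (adjusted p = 0.251) and with the replicate block (adjusted p = 0.0570). All 3 sh10 libraries were above and both sh20 libraries below every *Renilla* library. Of 20 gene and group sets with 4 libraries, 0 held a library that stood apart by Dixon's criterion.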

How the results depend on the processing

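No called value changed direction in 501 recomputed values. Of 339 values without 1 library, 50 no longer passed the threshold, and of 162 under other alternatives, 25 did not. Of 109 values not called, 59 changed sign under some alternative and 19 passed. Counts of called genes, given as the reported count and then the alternative, changed as follows. CMP against LSK with sh10 (4) gave 7 with no filter and 7 with only the groups compared. With sh20 (4) it gave 9 with no filter, 7 with DESeq2 and 1 with only the groups compared. Over all genes, no filter called 1193 higher and 1518 lower with sh10, and 1203 and 1807 with sh20. DESeq2 called 16.9% of genes with sh20, and only the groups compared gave 635 higher and 1358 lower with sh10. The comparison of sh10 with *Renilla* in CMPs (3) gave 0 with log2 total counts as a covariate and 1 with all 19 libraries in 1 fit. That of sh20 with *Renilla* (2) gave 1 with no filter, 0 with the covariate and 0 with all 19 libraries. That of sh20 with sh10 (1) gave 2 with DESeq2 and 0 with the covariate. Both hairpins as 1 group in CMPs (0) gave 1 with upper quartile normalization, 2 with DESeq2, 1 with all 19 libraries and 1 with hairpins as separate groups. The interactions (0 each) gave 2 for sh10 and 1 for sh20 with no filter. The cause of these changes was not tested.

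With 1 library left out, the counts ran from 5 to 8 for CMP against LSK with *Renilla*, from 3 to 5 with sh10 and from 3 to 5 with sh20. In CMPs they ran from 0 to 4 for sh10, from 0 to 2 for sh20, from 1 to 2 between hairpins and from 0 to 2 for both hairpins as 1 group, where the count of 2 came without CMP sh20 B. In LSK cells and for the interactions they stayed at 0. CMP sh20 then rests on 1 library, which is assumed to vary like the other groups.

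Replicate letters were not taken to pair the libraries. Deviations from group means in libraries of a shared letter within a cell type had correlations from -0.0792 to 0.0444 in 16 pairs. Across cell types those of a shared letter ran from -0.0684 to 0.21 (median 0.0222, 25 pairs). Those of unlike letters ran from -0.169 to 0.0901 (median -0.00844, 65 pairs), so the highest value was in a pair of a shared letter. The pairs across cell types mixed hairpins. Whether CMP and LSK libraries of the same hairpin and letter were paired was therefore not examined. The replicate block also treated a letter as shared between hairpins. With the replicate block, 5 genes were called for CMP against LSK with *Renilla*, 4 each with sh10 and sh20, and 0 for sh10, sh20, sh20 against sh10 and both hairpins in CMPs. Over all genes the block left 0 higher and 5 lower for sh10, 0 and 0 for sh20, and 7 and 21 between hairpins. With the block, *Ms4a2* between hairpins was -3.94 (edgeR adjusted p = 0.0570), and against *Renilla* 1.73 with sh10 and -2.21 with sh20 (adjusted p = 0.176 and 0.130). For CMP against LSK with *Renilla*, *Cpa3* was then -0.71 (adjusted p = 0.0506) and *Epx* -3.83 (adjusted p = 0.0623). Depth limits *Gzmb*, *Fcer1a*, *Ms4a2* and *Hdc* in CMPs, where some libraries held 10 or fewer counts.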
